A study of Mus musculus with 18 samples.

Results

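The genes described here are 28 of the 34896 genes of the expression table, chosen by symbol because their products make cholesterol, sense sterols, or carry and export them. They comprise 7 genes of the mevalonate steps, 3 of the squalene and lanosterol steps, 8 of the steps from lanosterol to cholesterol, 5 sterol sensing genes, 3 genes of sterol transport and efflux, and 2 genes of oxysterol receptors. RNA-seq had 3 libraries each of granulocyte-monocyte progenitors (GMPs, sorted as lin-cKIT+SCA1-CD16/32+CD34+ cells), pre-neutrophils (preNeu) and mature neutrophils (matNeu), the latter both sorted from MAC-1+GR1+ cells. All came from the bone marrow of adult WT C57BL/6 mice of 6 to 12 weeks. H3K4me2 ChIP-seq of the same 3 cell types and ATAC-seq of preNeu and matNeu cells used WT mice too, and ChIP-seq for CHD4, the ATPase of the NuRD chromatin remodeling complex, was done in GMPs of WT mice and of Gfi1-/- mice, which lack the transcriptional repressor GFI1 in every cell. Each ChIP-seq and ATAC-seq group had 1 library, so that peaks were described without a test.

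The cell type tag of the labels differed from the title for 13 of the 18 samples, and the titles were followed. Marker genes stood with the titles: Cd34 was at 425 to 498 TPM (the transcript share defined next) in the GMP libraries and at no more than 3.27 TPM elsewhere, and Cxcr2 was at 3030 to 3980 TPM in matNeu libraries and at no more than 93.4 TPM elsewhere. TPM, the length-scaled transcript share of a gene, sums to 1000000 in each library and keeps no depth, so that a rise of a few very abundant transcripts lowers all others. The top 10 genes of a library summed to 9.15% to 9.78% of its TPM among GMPs, whereas for preNeu libraries this share was 24.1% to 28.3% and for matNeu libraries 12.7% to 15.9%. The median log2 change over the 13061 genes tested was below 0 in each comparison. It was -0.52 for preNeu against GMP, -0.32 for matNeu against preNeu and -0.92 for matNeu against GMP. When the 50 most abundant genes were left out of the scaling, these medians were -0.18, -0.49 and -0.75 in the same order, over 13534 genes. What else moved the medians was not tested. In bulk libraries of this kind, fewer cells of a type and less RNA per cell cannot be told apart. The labels do not say that the libraries of a group came from separate animals, so that p-values measure the spread between these libraries only.

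Cholesterol is built from acetyl-CoA by way of mevalonate, the isoprenoid farnesyl diphosphate, squalene and lanosterol. When sterols are scarce in the membrane of the endoplasmic reticulum, SCAP escorts the SREBP transcription factors to the Golgi for processing, and the INSIG proteins hold this complex back when sterols are plentiful. Oxysterols in turn activate the LXR receptors, which induce the exporters ABCA1 and ABCG1. Proliferating cells need cholesterol for new membranes, whereas neutrophils leave the cell cycle as they mature.

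Short promoter elements are shown here so that the genes that share them can be compared. RefSeq promoters (GRCm38.p6, 250 bases before to 50 after the transcription start) were held for 23 of the 28 genes, as 32 promoters, and had no entry for Fdps, Fdft1, Sqle, Stard4 and Abcg1. Each was searched on both strands for TCACNCCAC, a core of the sterol regulatory element, CACGTG, an E-box, CCAAT, the box bound by NF-Y, and the DR4 element, a direct repeat of AGGTCA spaced by 4 bases that LXR can bind. The sterol regulatory core was found in 1 of the 32 promoters, that of Hmgcs1, against 1.24% of all 32817 promoters. CACGTG was in 7 of 32 (7.15% of all promoters), which belong to 6 genes, and CCAAT was in 19 of 32, of 18 genes (37.4% of all promoters). No member promoter held the DR4 element, which was in 0.0152% of all promoters. A match is a string of letters and not a bound site, and its absence says only that these letters were not in the window. The matches of the first 2 motifs lie at chr13:119690203-119690232 (Hmgcs1, plus strand), chr1:169969331-169969360 (Hsd17b7, minus), chr9:42264381-42264410 (Sc5d, minus), chr7:143823223-143823252 (Dhcr7, plus), chr5:28071299-28071328 (Insig1, plus), chr9:110333304-110333333 (Scap, plus, shared by its 2 promoters) and chr4:53160025-53160054 (Abca1, minus). They are printed in the direction of the gene, 30 bases each, with the motif in capitals; the E-box matches were picked for printing after the values were known.
Hmgcs1: acgtcaccgtcTCACCCCACttcccaggtc
Hsd17b7: ggacccttgtgtCACGTGgctccgcccctc
Sc5d: ctacgcggcgacCACGTGaccgccgcgacc
Dhcr7: cgctgtgatgaaCACGTGgcaaaaagcagc
Insig1: gctgggtgaggtCACGTGgctccggtggca
Scap: cgccgccgggagCACGTGtggagggcggcg
Abca1: gggccatgtctcCACGTGctttctgctgag

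The summed expression of the 18 synthesis enzymes fell at each stage, from 781 to 854 TPM in the GMP libraries to 488 to 537 TPM in preNeu and 269 to 302 TPM in matNeu, and the 3 ranges did not overlap. With median-of-ratios scaling, tried after the data had been seen, the sums ranged between 542 and 601 for GMPs, between 497 and 534 for preNeu cells and between 345 and 412 for matNeu cells, so that the first of these falls was small on that scale. The order of the enzymes changed along with the sum. In GMPs Fdps supplied 33.9% of the summed enzyme TPM, against 23% in preNeu and 1.28% in matNeu cells, where Msmo1 (25.7%) and Sc5d (22.7%) came first. Fdps made a large part of the falls of the sum. Its mean went from 279 to 119 and 3.68 TPM, while the mean sum went from 824 to 516 and 287 TPM. The sum therefore does not show that every enzyme fell. Proliferation genes changed between these stages as well, but were highest in preNeu cells. The summed TPM of Mki67, Top2a, Ccnb1 and Cdk1 ranged from 926 to 992 in GMPs, from 1880 to 2010 in preNeu and from 4.85 to 10.2 in matNeu cells, with all 4 genes detected in every group, and their part in the changes of the enzymes was not tested.

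**Figure D1:**
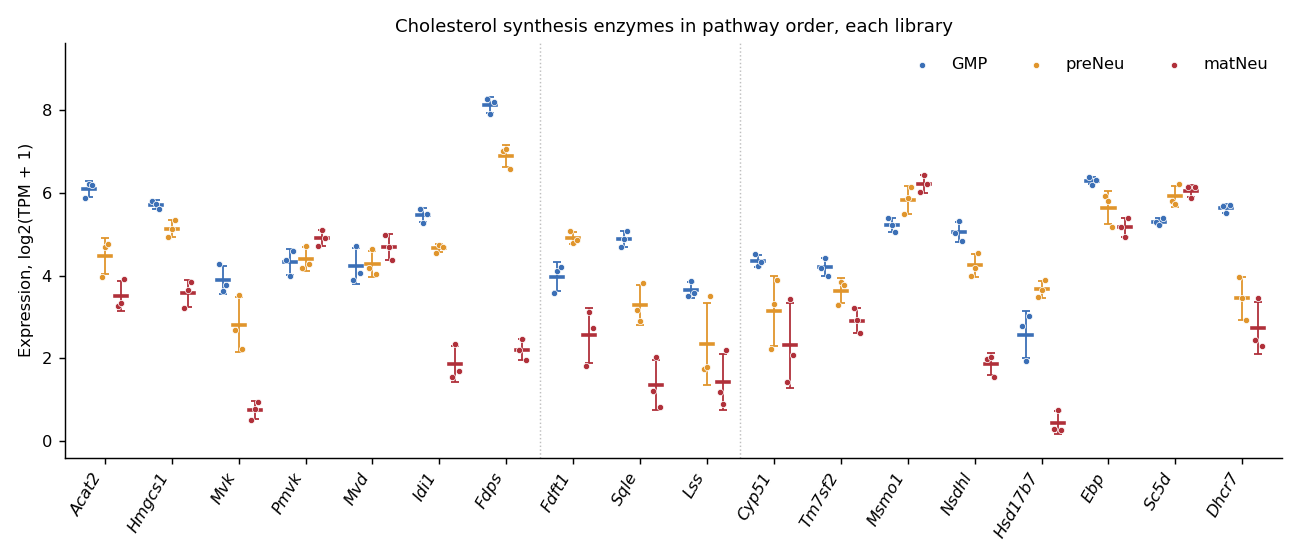
Expression of the 18 synthesis enzymes, as log2(TPM + 1), in pathway order from left to right, with dotted lines between the mevalonate, squalene and lanosterol, and later steps. Points are libraries (3 per cell type), bars are the mean and SD of these values. Fdps falls from 239 to 308 TPM in GMPs to at most 4.56 TPM in matNeu cells, while Msmo1 and Sc5d are higher in matNeu cells than in GMPs.

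All 28 genes passed the filter of at least 1 TPM in at least 3 libraries. Between preNeu cells and GMPs, 4 were higher (14.3%) and 13 lower (46.4%) at an adjusted p under 0.05 (limma on log2(TPM + 1), Benjamini-Hochberg over 13061 genes), close to the shares among all genes tested of 14.7% and 44.3%. Between matNeu and preNeu cells, 1 was higher (3.57%) and 16 lower (57.1%), with 22.9% and 39.8% of all genes. Between matNeu cells and GMPs, 5 were higher (17.9%) and 21 lower (75%), with 22.8% and 54.1% of all genes. The median log2 changes of the 28 genes were -0.58, -0.91 and -1.95 in these 3 comparisons, which share libraries. The scale of TPM bears on the counts. With median-of-ratios scaling, which shifts the median of all genes by 0.44, 0.26 and 0.76 on the log2 scale, the members counted 6 higher and 5 lower, 7 higher and 13 lower, and 7 higher and 14 lower. Over all genes the same scaling took the lower share of the calls from 75%, 63.5% and 70.4% to 54.3%, 52.4% and 54%. Leaving the 50 most abundant genes out of the scaling gave 6 members higher and 5 lower, 1 and 19, and 6 and 20. Over all genes the lower share of the calls was then 59.7%, 69% and 67.3%.

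**Figure D2:**
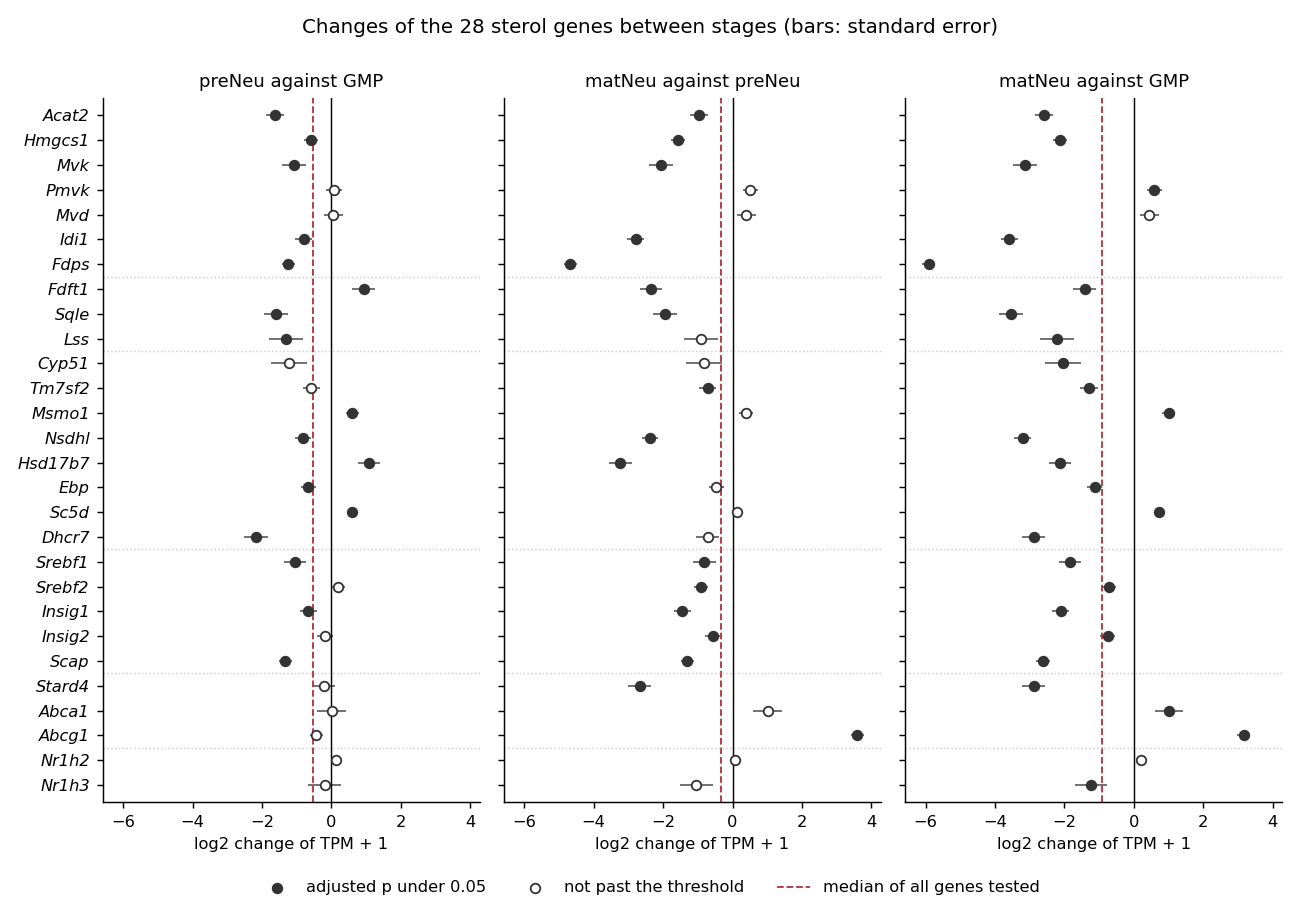
log2 change of TPM + 1 for each of the 28 genes in the 3 comparisons, with the standard error as bars, and filled points for an adjusted p under 0.05. The dashed line is the median of all 13061 genes tested, at -0.52, -0.32 and -0.92; Fdps lies farthest below it and Abcg1 farthest above it in the comparisons of matNeu cells.

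Among the 7 mevalonate genes, 5 fell from GMPs to preNeu cells (44.3% of all genes did) and 5 from preNeu to matNeu cells (39.8% of all genes). With median-of-ratios scaling the falls of Hmgcs1, Mvk and Idi1 at the first step were no longer called. Fdps, which makes farnesyl diphosphate, the branch point to sterols, dolichol, ubiquinone and protein prenylation, was at 308, 239 and 292 TPM in GMPs, 128, 133 and 95 TPM in preNeu and 3.59, 4.56 and 2.89 TPM in matNeu cells. No library of one stage reached the range of the next. The log2 change was -1.24 (SE 0.19, limma adjusted p = 0.000259) from GMPs to preNeu and -4.68 (SE 0.19, adjusted p = 8.6e-09) from preNeu to matNeu cells, and the mean TPM in matNeu cells was 75.9-fold below that in GMPs (log2 change -5.91, SE 0.19, adjusted p = 8.45e-10). Only 1.4% of all genes tested had a lower change in the latter comparison. Fdps shares 1124 of its 4208 exonic bases with the same-strand gene Gm43738, so that its reads could be divided between them.

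Idi1, the isomerase that supplies the second substrate of Fdps, was at 48, 37.6 and 43.7 TPM in GMPs, 22.4, 25.6 and 24.9 TPM in preNeu and 1.92, 4.13 and 2.25 TPM in matNeu cells. It fell at both steps, with a log2 change of -0.8 (SE 0.24, limma adjusted p = 0.0144) at the first and -2.79 (SE 0.24, adjusted p = 2.02e-06) at the second, or -3.59 (SE 0.24, adjusted p = 1.42e-07) over both. Mvk, mevalonate kinase, had 18.4, 11.3 and 12.6 TPM in GMPs, 5.39, 10.6 and 3.7 TPM in preNeu and 0.424, 0.724 and 0.924 TPM in matNeu cells. Its matNeu libraries were all under 1 TPM, and the log2 change was -1.08 (SE 0.35, adjusted p = 0.0216) to preNeu and -2.07 (SE 0.35, adjusted p = 0.000387) from there to matNeu, or -3.14 (SE 0.35, adjusted p = 9.46e-06) over both.

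Hmgcs1, HMG-CoA synthase and the carrier of the sterol regulatory core shown above, was at 54.9, 52.3 and 47.6 TPM in GMPs, 29.7, 33.8 and 39.7 TPM in preNeu and 8.3, 11.6 and 13.4 TPM in matNeu cells. It fell at both steps, with log2 changes of -0.58 (SE 0.2, adjusted p = 0.0273) then -1.56 (SE 0.2, adjusted p = 4.39e-05), and -2.14 (SE 0.2, adjusted p = 2.07e-06) over both. Acat2, which joins the first 2 acetyl-CoA units, had 57.4, 73.3 and 71.7 TPM in GMPs, 14.7, 24.8 and 26.2 TPM in preNeu and 8.68, 9.09 and 14.2 TPM in matNeu cells, and fell by 1.61 on the log2 scale (SE 0.26, adjusted p = 0.000328) and then by 0.97 (SE 0.26, adjusted p = 0.00693). Over both steps the change of Acat2 was -2.58 (SE 0.26, adjusted p = 3.72e-06). Its near-identical neighbor Acat3 can take a part of its reads.

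Pmvk and Mvd, which act between Mvk and Idi1, were not called lower in any comparison. Pmvk, phosphomevalonate kinase, was at 19.7, 14.9 and 23.3 TPM in GMPs, 17.2, 25.3 and 18.5 TPM in preNeu and 25.3, 33.2 and 28.9 TPM in matNeu cells, and rose from GMPs to matNeu cells (log2 change 0.59, SE 0.22, adjusted p = 0.0317), a call that ended without GMP library 1 (0.61, adjusted p = 0.0544) or 2 (0.42, 0.127), or matNeu library 2 (0.49, 0.101) or 3 (0.59, 0.0606). Mvd, the decarboxylase, was at 13.9 to 25.2 TPM in GMPs, 15.3 to 23.8 TPM in preNeu and 19.6 to 30.8 TPM in matNeu cells. These ranges overlap, and the change from GMPs to matNeu cells was 0.45 (SE 0.27, adjusted p = 0.144), rising to 1.3 (adjusted p = 0.00123) with median-of-ratios scaling.

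Of the 3 genes from farnesyl diphosphate to lanosterol, Fdft1 took another course from the other two. Fdft1, squalene synthase and the first enzyme committed to sterols, was at 10.9, 16.4 and 17.6 TPM in GMPs, 32.7, 26.8 and 28 TPM in preNeu and 2.53, 7.69 and 5.66 TPM in matNeu cells. Its preNeu libraries were all above those of GMPs (log2 change 0.94, SE 0.33, adjusted p = 0.0285) and its matNeu libraries all below both (-2.35 against preNeu, SE 0.33, adjusted p = 8.59e-05). The rise was not called without GMP library 1 (0.74, adjusted p = 0.101) or without any 1 of the preNeu libraries (0.86 to 1), and the fall from GMPs to matNeu cells of 1.41 (SE 0.33, adjusted p = 0.00219) was -0.63 (adjusted p = 0.126) with median-of-ratios scaling. Fdft1 overlaps the exons of Ctsb on the opposite strand over 774 bases.

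Sqle, squalene epoxidase, was at 25, 28.4 and 32.6 TPM in GMPs, 8, 6.42 and 13.2 TPM in preNeu and 1.32, 3.06 and 0.777 TPM in matNeu cells. It fell by 1.59 (SE 0.35, adjusted p = 0.00248) and then by 1.94 (SE 0.35, adjusted p = 0.000538) on the log2 scale, and its matNeu mean was 16.7-fold below the GMP mean (-3.53, SE 0.35, adjusted p = 3.3e-06). Lss, lanosterol synthase, had 10.3, 13.7 and 11 TPM in GMPs, 2.34, 2.47 and 10.3 TPM in preNeu and 1.27, 0.872 and 3.61 TPM in matNeu cells. The third preNeu library stood close to the GMPs, and the fall from GMPs to preNeu of 1.31 (SE 0.49, adjusted p = 0.0397) was not called when any 1 library of either group was left out, except preNeu library 3 (-1.01 to -1.38, adjusted p = 0.0623 to 0.142). From GMPs to matNeu cells Lss fell by 2.22 (SE 0.49, adjusted p = 0.00163).

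Of the 8 genes from lanosterol to cholesterol, 3 were higher and 3 lower in preNeu than in GMPs, where 14.7% of all genes were higher and 44.3% lower, and 2 were higher and 6 lower in matNeu than in GMPs, where 22.8% and 54.1% were. Nsdhl and Dhcr7 were among those that fell. Nsdhl, a dehydrogenase that takes part in removing methyl groups at carbon 4, was at 31.8, 38.6 and 27.5 TPM in GMPs, 14.9, 17.2 and 22.5 TPM in preNeu and 2.99, 3.08 and 1.94 TPM in matNeu cells (matNeu against preNeu -2.38, SE 0.24, adjusted p = 7.44e-06; matNeu against GMP -3.2, SE 0.24, adjusted p = 3.82e-07). Dhcr7, the last reductase of the pathway, was at 49.9, 44.3 and 50.8 TPM in GMPs, 14.5, 10 and 6.6 TPM in preNeu and 4.4, 9.98 and 3.93 TPM in matNeu cells. Dhcr7 fell by 2.17 (SE 0.34, adjusted p = 0.000291) from GMPs to preNeu cells, and the further change of -0.72 (SE 0.34, adjusted p = 0.0889) had overlapping groups. From GMPs to matNeu cells the change was -2.89 (SE 0.34, adjusted p = 1.44e-05).

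Msmo1 and Sc5d were higher in both later stages than in GMPs. Msmo1, the methyl sterol oxidase, was at 41.1, 36.2 and 32.1 TPM in GMPs, 43.5, 57.7 and 69 TPM in preNeu and 63.3, 85.4 and 72.9 TPM in matNeu cells, with every preNeu and matNeu library above every GMP library. It rose by 0.61 (SE 0.19, adjusted p = 0.0196) to preNeu and by 1 (SE 0.19, adjusted p = 0.000681) from GMPs to matNeu cells. The first of these calls ended without GMP library 3 (0.52, adjusted p = 0.0694), preNeu library 2 (0.58, 0.0562) or preNeu library 3 (0.46, 0.0767). Sc5d, the sterol C5 desaturase, was at 38.1, 36.5 and 41.1 TPM in GMPs, 55.1, 51.6 and 72.8 TPM in preNeu and 69.1, 57.7 and 68.9 TPM in matNeu cells. It was likewise higher in every library after the GMP stage (0.61, SE 0.16, adjusted p = 0.0078 for preNeu; 0.74, SE 0.16, adjusted p = 0.00152 for matNeu, each against GMP), and its preNeu and matNeu libraries overlapped.

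Hsd17b7, a keto reductase acting on the same intermediates as Nsdhl, was lowest at the end and highest in the middle, at 5.82, 2.83 and 7.1 TPM in GMPs, 10.1, 11.5 and 13.8 TPM in preNeu and 0.224, 0.697 and 0.207 TPM in matNeu cells. The 3 groups did not overlap. It rose by 1.09 (SE 0.32, adjusted p = 0.0136; 0.77, adjusted p = 0.0596, without GMP library 2) and then fell by 3.23 (SE 0.32, adjusted p = 6.94e-06), to a mean 14-fold below that of GMPs (-2.13, SE 0.32, adjusted p = 0.000107). Ebp, the sterol isomerase, was at 72.1 to 82 TPM in GMPs, 35.3 to 59.3 TPM in preNeu and 29.4 to 41.2 TPM in matNeu cells and fell by 1.13 overall (SE 0.21, adjusted p = 0.000441), or by 0.26 (adjusted p = 0.295) with median-of-ratios scaling. Cyp51, lanosterol demethylase, spread widely after the GMP stage, at 17.8 to 22 TPM in GMPs, 3.68 to 13.9 TPM in preNeu and 1.69 to 9.76 TPM in matNeu cells, and was called for matNeu against GMP (-2.05, SE 0.52, adjusted p = 0.00383; -1.27, adjusted p = 0.0503, with median-of-ratios scaling). Its change from GMPs to preNeu cells (-1.22, SE 0.52, adjusted p = 0.0645) was called in 5 of 17 alternatives. Tm7sf2, a sterol reductase, was at 14.8 to 20.6 TPM in GMPs, 8.75 to 13.3 TPM in preNeu and 5.07 to 8.23 TPM in matNeu cells, with a change from GMPs to matNeu of -1.29 (SE 0.25, adjusted p = 0.00068; -0.49, adjusted p = 0.085, with median-of-ratios scaling). It shares 532 exonic bases with Vps51 on the same strand.

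All 5 sterol sensing genes were called lower in matNeu than in preNeu cells (39.8% of all genes were) and than in GMPs (54.1% of all genes). The call against preNeu cells was lost in 12 of 17 alternatives for Srebf1 and in 8 of 17 for Insig2. Scap, the escort of the SREBPs, was at 56, 57.7 and 56.8 TPM in GMPs, 19, 27 and 21.2 TPM in preNeu and 10.1, 6.67 and 8.73 TPM in matNeu cells, with no overlap between stages. It fell by 1.32 (SE 0.2, adjusted p = 0.000218) and again by 1.3 (SE 0.2, adjusted p = 0.000171), so that the matNeu mean was 6.69-fold below the GMP mean (-2.62, SE 0.2, adjusted p = 3.87e-07). Insig1, whose product retains SCAP, was at 22.3, 30.1 and 26.2 TPM in GMPs, 14, 13.5 and 21.9 TPM in preNeu and 5.84, 5.9 and 4.2 TPM in matNeu cells, and fell by 1.45 from preNeu to matNeu cells (SE 0.24, adjusted p = 0.000371) and by 2.11 from GMPs to matNeu cells (SE 0.24, adjusted p = 1.28e-05).

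Srebf1, which codes for SREBP-1, was at 42.6, 36.9 and 55.8 TPM in GMPs, 18.3, 20.7 and 25 TPM in preNeu and 11.8, 6.62 and 19.6 TPM in matNeu cells. It fell by 1.04 to preNeu (SE 0.32, adjusted p = 0.018) and by 1.85 from GMPs to matNeu cells (SE 0.32, adjusted p = 0.000323). Srebf2, for SREBP-2, the isoform tied most closely to cholesterol synthesis, was at 24, 33.2 and 23.6 TPM in GMPs, 29.7, 30.6 and 31.9 TPM in preNeu and 12.6, 19 and 16.5 TPM in matNeu cells. Its change from preNeu to matNeu cells was -0.91 (SE 0.2, adjusted p = 0.00233). Against GMPs the matNeu change of Srebf2 (-0.71, SE 0.2, adjusted p = 0.00773) and that of Insig2 (-0.75, SE 0.22, adjusted p = 0.00922) turned to 0.13 and 0.09 with median-of-ratios scaling, where neither was called. Insig2 was at 17.6 to 29.8 TPM in GMPs, 18.5 to 23 TPM in preNeu and 12.6 to 14.8 TPM in matNeu cells.

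**Figure D3:**
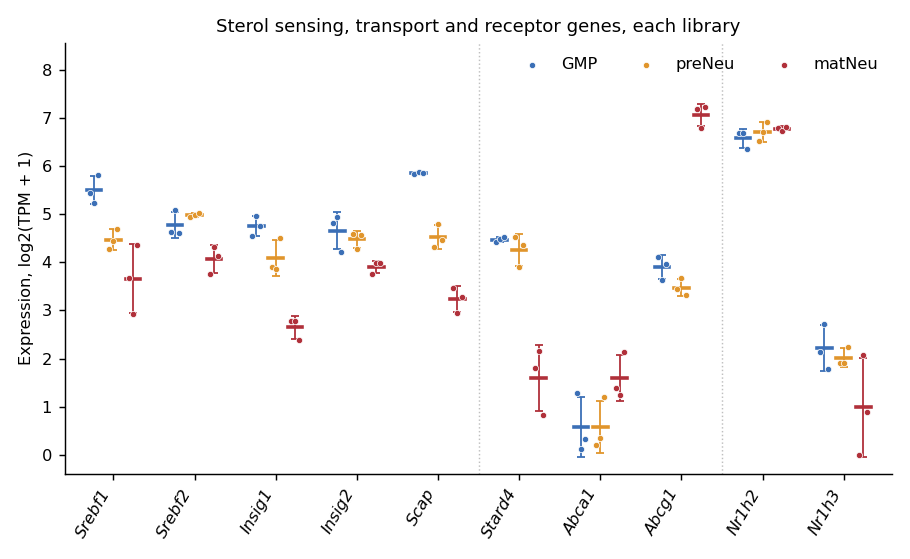
Expression of the sterol sensing genes (left), the transport and efflux genes (middle) and the oxysterol receptors (right), as log2(TPM + 1). Points are libraries (3 per cell type), bars are the mean and SD of these values. Abcg1 stands at 111 to 149 TPM in matNeu cells against at most 16.4 TPM in the other cells, while Nr1h2 stays between 81.3 and 121 TPM in all 9 libraries.

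The largest rise among the 28 genes was in Abcg1, an exporter that passes cholesterol to lipoproteins. Abcg1 was at 16.4, 11.4 and 14.6 TPM in GMPs, 9.85, 11.7 and 8.99 TPM in preNeu and 145, 111 and 149 TPM in matNeu cells. The matNeu libraries were all far above the others, 13.3-fold over preNeu by their means (log2 change 3.6, SE 0.19, limma adjusted p = 6.48e-08) and 9.57-fold over GMPs (3.17, SE 0.19, adjusted p = 7.78e-08), and 97.8% of all genes tested had a lower change from preNeu to matNeu cells. Macrophages also express Abcg1. The 6 macrophage markers were each above 0 in at least 1 library of every group and summed to 37.6 to 43.2 TPM in GMPs, 241 to 355 TPM in preNeu and 99.1 to 141 TPM in matNeu cells. Of these, Adgre1 was highest in matNeu cells (75.7 to 97 TPM) and C1qa, C1qb and C1qc were highest in preNeu cells (22.7 to 42 TPM), where Abcg1 was lowest. The part of macrophages in the rise of Abcg1 was not tested.

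Abca1, the other LXR-induced exporter, was near the limit of detection at 1.44, 0.0847 and 0.247 TPM in GMPs, 0.144, 0.278 and 1.3 TPM in preNeu and 1.63, 1.36 and 3.42 TPM in matNeu cells. The matNeu libraries lay above the preNeu libraries, but 1 of them lay below the highest GMP library. The change from GMPs to matNeu cells of 1.02 (SE 0.41, adjusted p = 0.0408) was not called without GMP library 2 (0.79, adjusted p = 0.149) or 3 (0.89, 0.12), nor without matNeu library 1 (1.12, 0.0575) or 3 (0.74, 0.157). Stard4, a carrier that moves cholesterol between membranes inside the cell, went the other way, at 20.4, 21.3 and 22.1 TPM in GMPs, 22.2, 13.9 and 19.6 TPM in preNeu and 2.49, 3.46 and 0.782 TPM in matNeu cells. Its change from GMPs to preNeu cells did not pass the threshold (-0.21, SE 0.33, adjusted p = 0.611), and it then fell by 2.67 (SE 0.33, adjusted p = 3.72e-05) (matNeu against GMP -2.88, SE 0.33, adjusted p = 1.2e-05).

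Nr1h2, which codes for LXRβ, had the narrowest range of the 28 genes by the ratio of its highest to its lowest TPM, at 103, 102 and 81.3 TPM in GMPs, 90.9, 104 and 121 TPM in preNeu and 111, 105 and 112 TPM in matNeu cells. None of its 3 changes passed the threshold (0.14, 0.07 and 0.2, each with SE 0.14). With median-of-ratios scaling all 3 did, as rises of 0.65, 0.43 and 1.08. Nr1h3, for LXRα, was low throughout, at 2.44 to 5.62 TPM in GMPs, 2.74 to 3.72 TPM in preNeu, and 0, 3.19 and 0.847 TPM in matNeu cells. Its matNeu value against GMP (-1.23, SE 0.47, adjusted p = 0.0337) rested on overlapping groups and was not called without GMP library 1 (-1.27, adjusted p = 0.0579) or 2 (-0.97, 0.119), or matNeu library 1 (-0.74, 0.139) or 3 (-1.18, 0.075).

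Not every call stood when single libraries were left out. From GMPs to preNeu cells, 6 of the 17 calls, those of Acat2, Fdps, Sqle, Sc5d, Dhcr7 and Scap, held in every alternative tried. With median-of-ratios scaling, the falls of Hmgcs1 (-0.08), Mvk (-0.6), Idi1 (-0.3), Lss (-0.85), Nsdhl (-0.32), Ebp (-0.15), Srebf1 (-0.53) and Insig1 (-0.17) were not called. Beyond those described above, Hmgcs1 lost its call without GMP library 1 or 2 or preNeu library 1 or 2 (-0.48 to -0.57), Mvk without GMP library 1 or preNeu library 1 or 3 (-0.79 to -1.01), Idi1 without GMP library 1 (-0.72, adjusted p = 0.0545), and Nsdhl without GMP library 2 or preNeu library 1 (-0.69 in both). Ebp lost it without GMP library 1 (-0.62) or preNeu library 3 (-0.43), Srebf1 without GMP library 3 (-0.88) or preNeu library 1 (-0.94), and Insig1 without GMP library 2 or 3 or preNeu library 1 or 2 (-0.54 to -0.66). From preNeu to matNeu cells, 14 of the 17 calls held throughout. Tm7sf2 (-0.72, adjusted p = 0.0268), Srebf1 (-0.81, adjusted p = 0.0476) and Insig2 (-0.57, adjusted p = 0.0416) did not. Tm7sf2 was not called without preNeu library 2 or 3 or matNeu library 2 or 3 (-0.57 to -0.73), and Insig2 not without preNeu library 1 or 3 or any 1 of the matNeu libraries (-0.5 to -0.61). Srebf1 was not called without any 1 of the preNeu libraries, GMP library 1 or 2, or matNeu library 1 or 2 (-0.45 to -0.92).

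Other genes around the pathway were counted as whole lists, beside all genes tested, of which 22.8% were higher and 54.1% lower in matNeu cells than in GMPs, with a median log2 change of -0.92. The 18 synthesis enzymes counted 3 higher and 14 lower in that comparison (median -2.13). Of 23 tested genes of further sterol synthesis, uptake, storage and trafficking, 7 were higher and 11 lower (median -0.21). The 13 genes of a broad list around the handling of SREBPs counted 2 higher and 7 lower (median -1.48). The counts of both lists were near the shares of all genes. The 13 tested genes of fatty acid synthesis and other LXR targets counted 4 higher and 9 lower (median -2.6). The 13 genes of the branches to prenylated proteins, dolichol and ubiquinone, which draw on the product of Fdps or of its neighboring steps, counted 9 lower and 0 higher by limma, with 0 higher also at an unadjusted p under 0.05 (median -2.34). From GMPs to preNeu cells, where 14.7% of all genes were higher and 44.3% lower, these 4 lists counted 7 higher and 12 lower, 2 and 9, 1 and 7, and 1 and 7. From preNeu to matNeu cells, where 22.9% and 39.8% were, they counted 11 higher and 6 lower, 3 and 5, 3 and 6, and 1 and 10. Zmpste24, a protease that processes prenylated prelamin A, was the 1 gene of the last list higher in preNeu than in GMPs (4.61-fold by mean TPM; log2 change 2.18, SE 0.14, adjusted p = 6.24e-07), and it was named after its values were seen.

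Chromatin at the members was read next, to see whether CHD4 in GMPs and H3K4me2 along the lineage mark these genes. CHD4 peaks were counted at their promoters (2 kb before to 500 bp after the start, with the peak summit inside). In WT GMPs 3 of 28 promoters held a CHD4 peak, those of Fdps, Insig2 and Abca1, against 8.08% of all 21938 protein-coding promoters and 11.9% of those of genes with a mean of at least 1 TPM in GMPs. In Gfi1-/- GMPs 0 of 28 did, against 1.57% of all promoters. This list was shorter in all, with 7316 peaks against 35790 in WT GMPs, and 18.5% of all WT peaks overlapped a peak of the Gfi1-/- list. With 1 library for each genotype, a lost peak and a weaker library cannot be told apart.

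The Fdps peak (chr3:89102885-89103631, fold enrichment 11.8) had its summit at -1272 bp from the gene start (negative values are upstream), outside any annotated gene, and overlapped H3K4me2 peaks of all 3 stages. The Insig2 peak was weak (fold 4.03, above 2.6% of all WT peaks), with its summit at -1911 bp. That of Abca1 (fold 4.74) lay at -25 bp. Within 10 kb of the gene bodies, 10 of the 28 genes had a CHD4 peak, against 32.4% of all protein-coding genes and 42.8% of those expressed in GMPs. They held 32 peaks, of which 5 overlapped a peak of Gfi1-/- GMPs (15.6%). Outside Abca1, the strongest was a peak 17310 bp past the start of Sc5d, beyond its end (chr9:42246666-42247219, fold 23.6), which was also found in Gfi1-/- GMPs at a fold of 4.72.

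Abca1 held 20 of these 32 peaks, although its mRNA was barely detected in GMPs. The gene is long (129109 bp, chr4:53030787-53159895, minus strand), and the peak counts given here are not scaled to gene length. Apart from the peak at the start, all lay in its introns, between 1098 and 70709 bp from the start. The strongest were at chr4:53120098-53120994 (fold 36.1) and chr4:53121592-53122579 (fold 31.3), the first above 97.2% of all WT peaks. In Gfi1-/- GMPs 4 of the 20 were still listed, with folds of 5.83, 8.6, 10.5 and 7.49 there and of 16, 19.9, 36.1 and 31.3 in WT GMPs, which come from libraries of different yield and were not compared. H3K4me2 peaks in GMPs, preNeu and matNeu cells overlapped 8, 11 and 8 of the 20, and ATAC-seq peaks 2. Over all 32 peaks of the members the counts were 11, 19, 15 and 2, and among all WT CHD4 peaks the shares were 37.8%, 59.5%, 52.5% and 10.1%. Abcg1 had 2 CHD4 peaks in WT GMPs, at -9881 bp (fold 10.9) and 3137 bp (fold 4.68) from its start, neither of which was listed in Gfi1-/- GMPs.

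**Figure D4:**
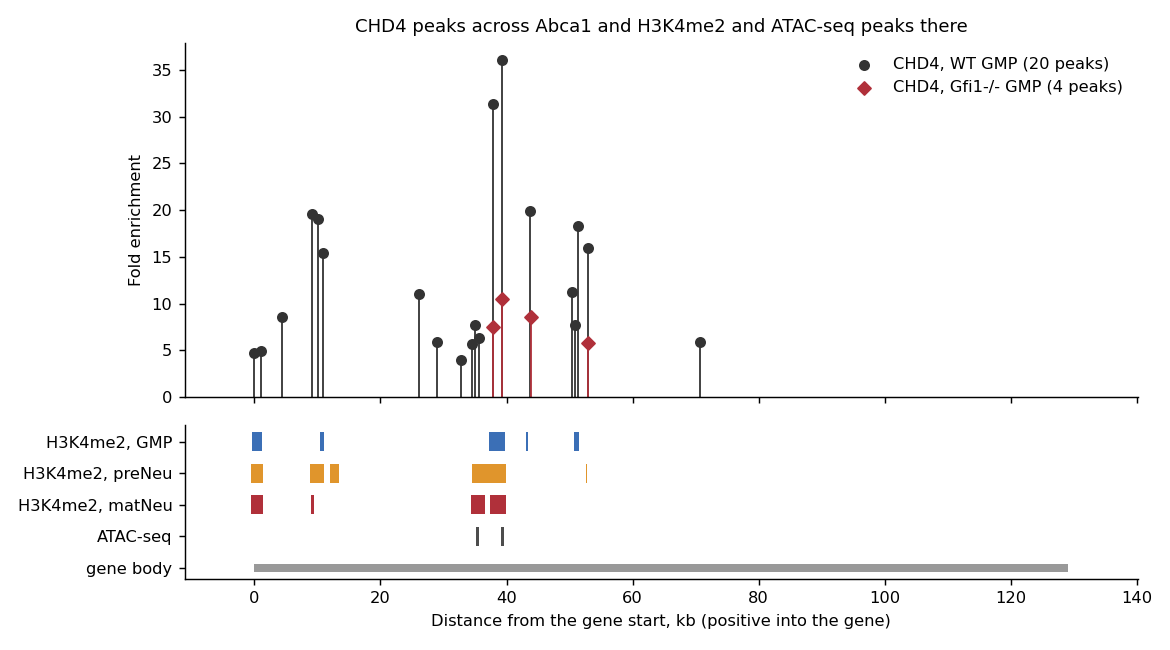
CHD4 peaks of WT (circles) and Gfi1-/- (diamonds) GMPs across Abca1, by the distance of the summit from the gene start in kb and the fold enrichment, with H3K4me2 and ATAC-seq peaks as bars underneath. The 2 tallest WT peaks, at folds of 31.3 and 36.1, lie together in introns and overlap H3K4me2 peaks of each stage, and the 4 Gfi1-/- peaks run from 5.83 to 10.5.

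The sequence under the strongest CHD4 peak of Abca1 is shown with that of the Fdps promoter peak, since these are the members' strongest sites in a gene body and in a promoter. Each runs over 101 bases centered on the summit, at chr4:53120582-53120682 and chr3:89103181-89103281 of GRCm38, on the minus strand and so in the direction of the gene. Capitals mark GGAA, the core that ETS factors such as PU.1 bind, on either strand. It occurred 4 times in the Abca1 window and 2 times in that of Fdps. Of 35728 such windows around WT CHD4 peaks on the assembled chromosomes, 55.5% held at least 2 and 8.05% at least 4. This core was chosen after the sequences had been seen.
Abca1 intron: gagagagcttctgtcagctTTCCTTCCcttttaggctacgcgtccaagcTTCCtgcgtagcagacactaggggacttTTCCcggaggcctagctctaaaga
Fdps promoter: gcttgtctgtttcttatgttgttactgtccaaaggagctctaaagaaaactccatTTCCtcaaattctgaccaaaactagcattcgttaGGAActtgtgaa

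H3K4me2, a mark of active and poised promoters and enhancers, was present at most member promoters at every stage, as at those of other expressed genes. A peak overlapped the promoter of 25 of 28 genes in GMPs, 26 in preNeu and 26 in matNeu cells. Among all protein-coding promoters the shares were 59.4%, 59.3% and 56.9%, and among those of genes expressed at the stage 88.9%, 92.1% and 88.5%. Pmvk and Insig2 had no such peak at any stage and Fdft1 had none in GMPs, but all 28 genes had one at the start of some annotated transcript. The GMP count fell from 25 to 12 when the -log10 q-value had to reach 5 and to 12 where a peak had to cover 50% of the promoter, and the latter took the matNeu count to 16. Fdps kept its promoter peak in matNeu cells (3988 bp wide, fold 6.86) at the stage where its mRNA was lowest, and so did Hsd17b7 (1783 bp, fold 6.55) and Mvk (1833 bp, fold 8.14). Abcg1 had a wide promoter peak already in GMPs (4266 bp, fold 3.72), which was 4346 bp wide in preNeu and 4368 bp wide in matNeu cells.

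**Figure D5:**
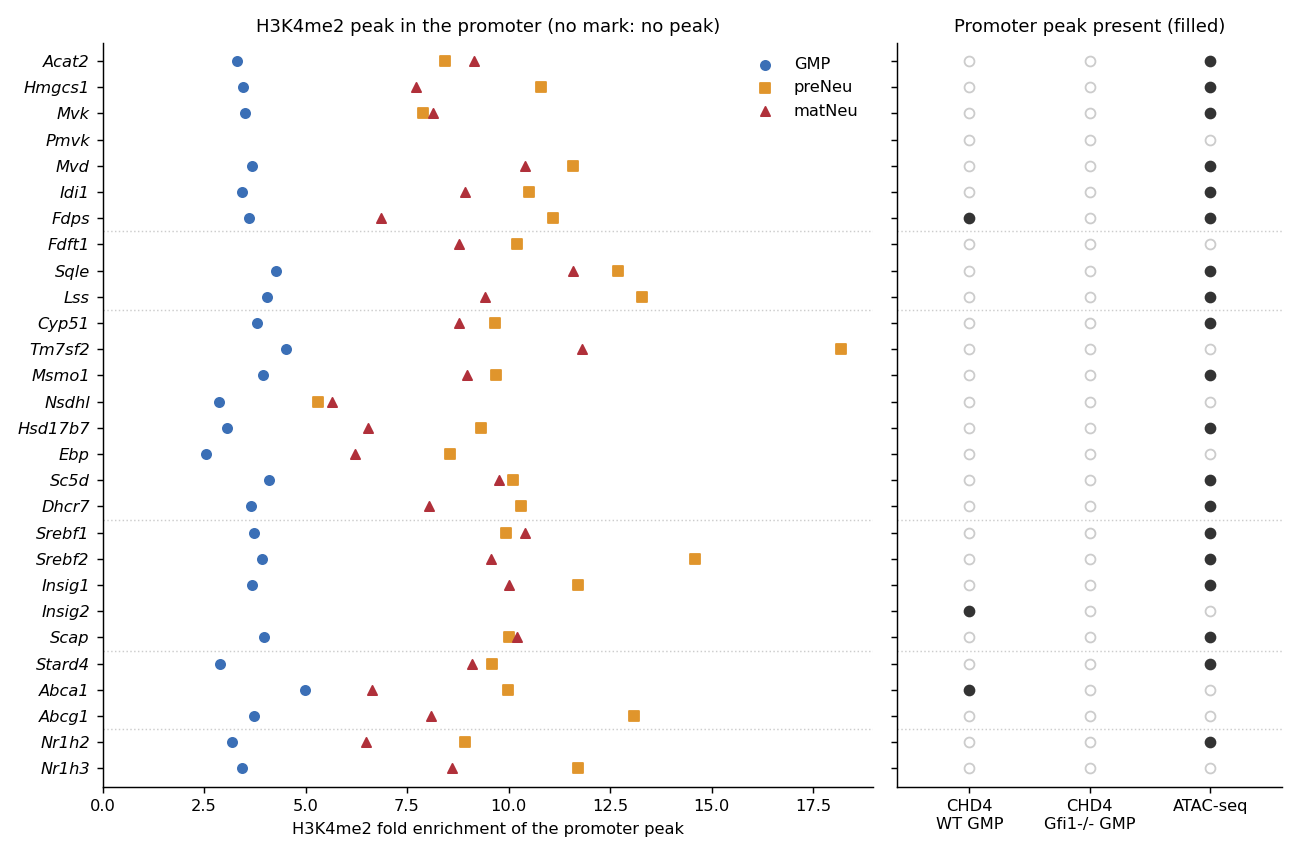
Left, fold enrichment of the strongest H3K4me2 peak in the promoter of each gene in GMPs, preNeu and matNeu cells, with no symbol where there is no peak. Right, filled circles where the promoter holds a CHD4 peak in WT or Gfi1-/- GMPs or an ATAC-seq peak. Folds run from 2.54 to 4.99 in GMPs, from 5.3 to 18.2 in preNeu and from 5.65 to 11.8 in matNeu cells, 1 library each.

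The folds of these peaks differ between stages for the lists as a whole, so that they were read only within a stage. The median fold at member promoters was 3.67 in GMPs, 10.1 in preNeu and 8.85 in matNeu cells, beside 3.58, 10.6 and 8.48 at promoters of expressed genes with a peak. Their median width was 1769, 2893 and 2087 bp, beside 2221, 3486 and 2790 bp. Tm7sf2 had the highest fold in preNeu (18.2) and matNeu cells (11.8), and Nsdhl was among the lowest at all 3 stages (2.88, 5.3 and 5.65). Ebp, which like Nsdhl lies on the X chromosome, was also low in GMPs (2.54) and matNeu cells (6.23), with 8.55 in preNeu cells. The part of the chromosome in these folds was not tested. The 2 deposited ATAC-seq lists, labelled preNeu and matNeu, matched in all 16307 peaks and cannot show a change between these stages. Which of the 2 cell types the peaks came from is unknown. Read as 1 list, they held a peak at 19 of 28 member promoters, against 35.8% of all promoters and 67.5% of those expressed in matNeu cells. The members without one were Pmvk, Fdft1, Tm7sf2, Nsdhl, Ebp, Insig2, Abca1, Abcg1 and Nr1h3. With the starts of all annotated transcripts, 22 members held a peak, Pmvk, Fdft1 and Insig2 among them. Abcg1, without a peak in either case, had the highest mean TPM of the 28 in matNeu cells (135 TPM), but a mean of 10.2 TPM in preNeu cells.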

How the data were processed

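Expression came from 9 RNA-seq libraries, 3 per cell type, as a table of TPM that the authors deposited. Its sources give the build mm10 and name kallisto 0.44.0, Trimmomatic 0.36, FastQC 0.11.5 and MultiQC 1.6, while the study's methods describe other tools, and how the TPM were made is not given in the sources used here. TPM keeps no depth, so that no count test was run. limma 3.58.1 (R 4.3.3) was fitted with a variance trend on log2(TPM + 1), with cell type as the only term, for the 13061 genes that reached 1 TPM in 3 or more libraries, with Benjamini-Hochberg adjustment over all of them and a threshold of 0.05. Log2 changes are on this scale, which understates those of low genes, while folds between stages are ratios of mean TPM. A simulated table with known changes was used to check the fit. Every member was named, with full statistics where a called log2 change was at least 1 in size and, beyond that rule, for further members chosen after their values were seen.

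The peak lists deposited by the authors hold each peak's fold enrichment, a ratio over background, and its -log10 q-value, per library (BWA 0.7.17 and MACS2 2.1.0 are named in the submitters' processing notes). Promoters were the 2 kb before and 500 bp after a gene start (GENCODE M21, GRCm38). The H3K4me3 and GFI1 lists were not used, since 2179 and 3105 of their peaks lie past the ends of GRCm38 chromosomes. Python 3.11.15, numpy 2.4.6, pandas 2.3.3 and matplotlib 3.10.9 were used. The members and lists were chosen with earlier results of these data known. Alternatives changed the pseudocount, filter, scaling, libraries, variance model, replicate block, peak threshold, overlap, promoter and motif window.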

Additional observations from a re-analysis of the deposited data

How the results depend on the processing

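Of 1421 alternative values of single genes, 1259 kept their direction and side of the threshold, 105 lost a call, 36 gained one and 21 changed sign; 37 of the 60 calls held under every alternative. For preNeu against GMP, the members called higher (4) were 2 with a pseudocount of 0.1 and 2 to 4 with 1 library left out, and those called lower (13) were 5 with median-of-ratios scaling, 5 when the 50 most abundant genes were left out of the scaling, and 7 to 14 with 1 library left out (8 without GMP library 1 and 7 without preNeu library 1). For matNeu against preNeu, 1 was higher, against 7 with median-of-ratios scaling, 2 with the compared groups alone, 2 without the variance trend and 1 to 3 with 1 library left out; for matNeu against GMP, 5 were higher, against 3 to 5 with 1 library left out. Sign changes from GMPs to preNeu were Insig2 (0.31), Stard4 (0.28), Abcg1 (0.05) and Nr1h3 (0.19) with median-of-ratios scaling, and Insig2 (0.21), Stard4 (0.17) and Nr1h3 (0.12) without the 50 most abundant genes. With 1 library left out, that change ran from -0.12 to 0.3 for Mvd (-0.1 and -0.02 without GMP library 1 and 3), from -0.09 to 0.22 for Pmvk (-0.08 without preNeu library 2), from -0.3 to 0.37 for Abca1 (-0.22 and -0.12 without GMP library 2 and 3) and from -0.41 to 0.06 for Nr1h3. From preNeu to matNeu, Sc5d (-0.1) and Nr1h2 (-0.16) changed sign without the 50 most abundant genes, and Nr1h2 (-0.03) without preNeu library 1. From GMPs to matNeu, Srebf2 (0.13) and Insig2 (0.09) did so with median-of-ratios scaling. The cause was not tested. The 3 CHD4 promoters were 1 within 1 kb of the start; the H3K4me2 promoters were 12 in GMPs at a -log10 q-value of at least 5, and 12 in GMPs and 16 in matNeu when a peak had to cover 50% of the promoter; the ATAC-seq promoters were 12 at that q-value; and TCACNCCAC was in 2 promoters from 500 bases before to 100 after the start. Depth is unknown for the TPM.

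The deviations of same-numbered libraries correlated at -0.039 to 0.123 over 9 pairs and those of other libraries at -0.128 to 0.071 over 18. These overlapping ranges do not settle whether same-numbered libraries were paired. With the library number as a replicate block, 4 members were higher and 13 lower, 1 and 15, and 5 and 21 in the 3 comparisons. That block ended the calls of Insig1 (preNeu against GMP) and Insig2 (matNeu against preNeu) and added Cyp51 (preNeu against GMP).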
